A study of Mus musculus with 4 samples.

Results

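The 10 genes described here make up a core set of the NRF2 antioxidant response and of glutathione metabolism in mouse: Nfe2l2, Keap1, Gclc, Gclm, Gsr, Txnrd1, Srxn1, Nqo1, Ephx1 and Me1. They are given by gene symbol, and each was read from the probe set that names that gene alone and has the highest mean over the arrays. All 10 were measured, out of 22180 genes with such a probe set. Expression was profiled with Affymetrix arrays in embryoid bodies of R1, a mouse embryonic stem cell line; embryoid bodies are aggregates in which stem cells begin to differentiate. The embryoid bodies formed for 18 h after withdrawal of LIF, the cytokine that keeps the cells undifferentiated, in medium with 1.88 µM GSK-J4, with 1.88 µM GSK-J5, with DMSO, or in EB medium alone. The labels describe GSK-J4 as an inhibitor of the KDM6 histone demethylases and GSK-J5 as the vehicle compound. GSK-J5 is called the control compound below. All 4 treatments shared the same line, time and feeder depletion, and each has 1 array, which sets the limit on precision. No difference below has a replicate check, and none carries a p-value.

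NRF2, the protein of Nfe2l2, is a transcription factor that KEAP1 holds for degradation through a CUL3 ubiquitin ligase. Electrophiles and oxidants modify cysteines of KEAP1, NRF2 then escapes degradation, pairs with a small MAF protein and binds antioxidant response elements of genes for glutathione synthesis, thioredoxin reduction, NADPH supply and detoxification. Much of this control acts on the NRF2 protein, so the transcript of Nfe2l2 itself need not change when the pathway is active. In the text a level is the authors' RMA value on the log2 scale. The margin is the distance of the GSK-J4 array from the nearest of the 3 controls (GSK-J5, DMSO and EB medium), and it is 0 when GSK-J4 lies among them. A gene was counted as higher or lower when its margin reached 1.5-fold, which is 0.585 on the log2 scale, and its mean level passed a filter at 6.585.

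Ephx1 was the exception in a set that otherwise stayed close to the controls. Transcripts of Ephx1, the microsomal epoxide hydrolase that opens reactive epoxides, were higher in GSK-J4 by 2.28-fold or more against every control. The classical NRF2 targets Nqo1, Gclc, Gclm, Gsr, Txnrd1 and Srxn1 differed from the nearest control by a margin of 0.09 or less in size. Of the 10 genes, all of which passed the filter, 1 was counted as higher, where 2.21% of the 13308 genes that passed the filter were. None of the 10 was counted as lower, where 0.842% of those genes were.

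**Figure D1:**
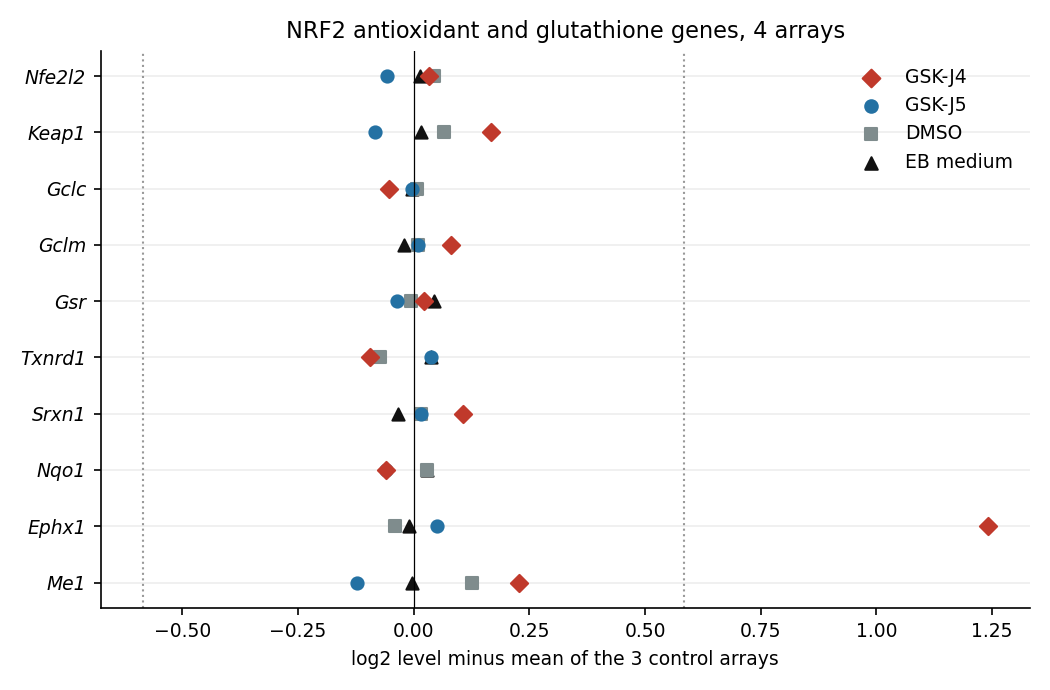
Each row is a gene and each symbol an array, placed at its log2 level minus the mean of the 3 controls; dotted lines mark 1.5-fold (0.585). Ephx1 in GSK-J4 sits 1.24 to the right of its control mean, while the GSK-J4 symbols of the other 9 genes lie between −0.09 and 0.23.

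Ephx1 read 9.16 in GSK-J4, against 7.97 in GSK-J5, 7.88 in DMSO and 7.91 in EB medium. The 3 controls lay within 0.09 of each other and the GSK-J4 array stood clear of them. The difference was 1.19 against GSK-J5, 1.28 against DMSO and 1.25 against EB medium, or 2.28-fold, 2.43-fold and 2.38-fold. By margin Ephx1 ranked 36 from the top among the 13308 genes. The array carries 1 probe set for Ephx1, so no other probe set could be set beside it. Besides NRF2, p53 is a known regulator of Ephx1.

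The regulators themselves showed little. Nfe2l2 read 11.72 in GSK-J4, against 11.63 in GSK-J5, 11.73 in DMSO and 11.70 in EB medium, so GSK-J4 lay inside the range of the controls. Keap1 read 8.65 in GSK-J4, against 8.40 in GSK-J5, 8.55 in DMSO and 8.50 in EB medium. GSK-J4 was the highest array for Keap1, with a margin of 0.10 beside a range of 0.15 among the controls. A second, dimmer probe set of Keap1 read 6.70 in GSK-J4, against 6.68, 6.59 and 6.77 in GSK-J5, DMSO and EB medium, and there GSK-J4 lay within the controls.

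Glutathione is made by glutamate-cysteine ligase, whose catalytic subunit is the product of Gclc and whose modifier subunit is that of Gclm. Gclc read 11.09 in GSK-J4, against 11.14 in GSK-J5, 11.15 in DMSO and 11.14 in EB medium. Gclm read 11.94 in GSK-J4, against 11.87 in GSK-J5, 11.87 in DMSO and 11.84 in EB medium. The subunits thus lay on opposite sides of their controls, by margins of −0.05 for Gclc and 0.07 for Gclm. Gsr, the glutathione reductase that regenerates reduced glutathione with NADPH, read 13.03 in GSK-J4, against 12.97 in GSK-J5, 13.00 in DMSO and 13.05 in EB medium. Its GSK-J4 array fell among the controls.

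Txnrd1 encodes the cytosolic thioredoxin reductase and Srxn1 sulfiredoxin, which repairs overoxidised peroxiredoxins. Txnrd1 read 11.70 in GSK-J4, against 11.83 in GSK-J5, 11.72 in DMSO and 11.83 in EB medium. GSK-J4 was the lowest array, with DMSO only 0.02 above it. Srxn1 read 10.52 in GSK-J4, against 10.43 in GSK-J5, 10.43 in DMSO and 10.38 in EB medium. It was highest in GSK-J4, 1.06-fold above the nearest control.

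Nqo1, the quinone reductase that is the usual readout of NRF2 activity, had the same level of 10.01 in GSK-J4 and in GSK-J5, against 10.10 in both DMSO and EB medium. Me1, the cytosolic malic enzyme that supplies NADPH, read 9.69 in GSK-J4, against 9.34 in GSK-J5, 9.59 in DMSO and 9.46 in EB medium. Among these 10 genes Me1 varied most between the controls, by 0.25, and its difference of 0.35 between GSK-J4 and GSK-J5 shrank to 0.10 against DMSO. GSK-J5 was the lowest array for Me1, and also for Keap1, Nfe2l2 and Gsr.

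GSK-J4 and GSK-J5 were given at the same dose for the same time. Between them 1 of the 10 genes, Ephx1, differed by 1.5-fold or more and was higher in GSK-J4, where 3.28% of the tested genes were higher by that fold; none was lower, where 1.39% were. For the other 9 genes the difference ran from −0.13 (Txnrd1) to 0.35 (Me1). With 1 array each, no interval can be put on these differences, so they do not show that the compounds act alike on the 9 genes. Against DMSO the same single gene was higher by 1.5-fold (3.89% of all genes were, and 1.57% were lower), and the other 9 lay between −0.09 and 0.10. Against EB medium it was again Ephx1 alone (2.96% of all genes were higher and 1.68% lower), and the other 9 lay between −0.13 and 0.23. The comparisons share the GSK-J4 array.

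The control compound moved none of the 10 genes by 1.5-fold relative to DMSO, as was the case for nearly all genes (0.0526% were higher by that fold and 0.120% lower). GSK-J5 minus DMSO ran from −0.25 for Me1 to 0.11 for Txnrd1, with 0.09 for Ephx1. Over all genes tested, the central 95% of the GSK-J5 minus DMSO differences spanned −0.26 to 0.27. The differences of GSK-J4 from DMSO for the 9 genes other than Ephx1, at most 0.10 in size, were inside that span. Against GSK-J5, however, Me1 differed by 0.35, outside the span, and Keap1 by 0.25, near its edge.

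The median GSK-J4 difference over the 10 genes was 0.08 against GSK-J5, 0.05 against DMSO and 0.06 against EB medium. Over all 13308 genes these medians were 0.00, 0.01 and 0.00. By any amount, 5 of the 10 lay above all controls (Ephx1, Keap1, Me1, Srxn1 and Gclm), where 38.0% of all genes did. Below all controls lay 2 (Gclc and Txnrd1), where 35.5% did. Nfe2l2, Nqo1 and Gsr lay within the controls.

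**Figure D2:**
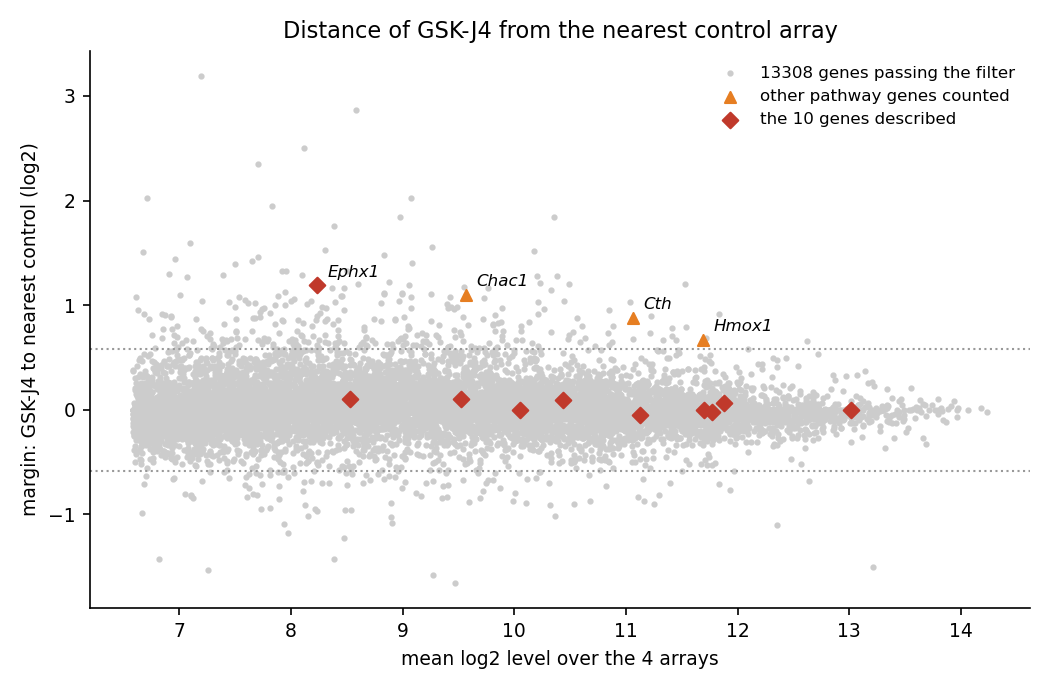
The margin of GSK-J4 to the nearest control (log2, vertical axis) is plotted against the mean log2 level over the 4 arrays for the 13308 genes that passed the filter; diamonds are the 10 genes and triangles the further pathway genes that were counted. Ephx1 stands at 1.19, above the dotted 1.5-fold line at 0.585, and the other 9 diamonds lie between −0.05 and 0.10.

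Promoter sequences are shown as a description only, for Ephx1 and for some of the genes whose start region holds an antioxidant response element core. RefSeq windows of build GRCm38.p6, from 250 bases before to 50 bases after the gene start, were at hand for 8 of the 10 genes (11 windows). The core TGACNNNGC and the looser TGANNNNGC, which contains it, were searched on both strands. The core occurred in 12.4% of all 32851 windows and the looser form in 41.3%. Among the 8 genes, 5 had a window with the core (Nfe2l2, Gclm, Txnrd1, Srxn1 and Me1) and 6 one with the looser form, Keap1 being the sixth. These counts are per gene, while the shares above are per window, so the shares are only a rough reference. Txnrd1 has 3 windows and Me1 has 2, and not all of them hold the core. No match to either form was found in the windows of Ephx1 and Nqo1. The 250 bases before the start are given 5′ to 3′ on the strand of the gene, and capitals mark the match. Ephx1 (chr1:181017570-181017819, minus strand) has no capitals. Gclm (chr3:122245307-122245556, plus strand) and Txnrd1 (chr10:82858956-82859205, plus strand, 1 of 3 start sites) show the core, and Srxn1 (chr2:152105274-152105523, plus strand) shows 3 matches to the looser form. In Me1 the core spans the start, so 25 bases around it are given (chr9:86695904-86695928, minus strand).
Ephx1: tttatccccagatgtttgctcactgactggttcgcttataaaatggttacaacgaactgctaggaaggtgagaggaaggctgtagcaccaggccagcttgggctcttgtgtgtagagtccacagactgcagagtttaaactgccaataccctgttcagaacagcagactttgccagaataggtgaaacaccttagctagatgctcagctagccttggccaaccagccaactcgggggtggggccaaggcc
Gclm: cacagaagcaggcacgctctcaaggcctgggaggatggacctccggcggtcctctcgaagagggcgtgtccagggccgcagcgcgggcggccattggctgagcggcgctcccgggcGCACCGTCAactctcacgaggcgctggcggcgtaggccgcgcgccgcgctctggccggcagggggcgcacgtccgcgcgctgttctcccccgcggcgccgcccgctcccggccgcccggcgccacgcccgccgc
Txnrd1: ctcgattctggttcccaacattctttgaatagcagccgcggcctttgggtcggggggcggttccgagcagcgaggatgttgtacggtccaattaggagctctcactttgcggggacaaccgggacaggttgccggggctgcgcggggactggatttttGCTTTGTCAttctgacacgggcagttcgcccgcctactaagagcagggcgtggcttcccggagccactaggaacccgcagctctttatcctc
Srxn1: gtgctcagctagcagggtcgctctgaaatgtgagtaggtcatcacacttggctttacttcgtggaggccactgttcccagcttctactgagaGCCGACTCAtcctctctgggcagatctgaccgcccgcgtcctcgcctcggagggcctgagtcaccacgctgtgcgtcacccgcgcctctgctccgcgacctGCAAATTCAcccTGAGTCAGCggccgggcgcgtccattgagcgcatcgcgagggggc
Me1: tgccgccgTGACTCAGCgcttctcg

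Counting the first base of the gene as 1 and the base before it as −1, the core began at −134 in Gclm, at −92 in Txnrd1 and at −6 in Me1. The Srxn1 matches shown began at −158, −57 and −45, and a core match of Srxn1 lay after the start, at 29 to 37. The windows also differed in base composition. Gclm held 48 CpG dinucleotides and Ephx1 held 5, with a median of 7 over all windows. Of the genes without a match, Ephx1 was counted as higher and Nqo1 was not. The genes with a match were not counted either. Whether a match bears on the GSK-J4 level was not tested. These windows hold no distal elements, and a match is a string of letters and not a measured binding site.

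The gene profiles most like that of Ephx1 were sought by the Euclidean distance between log2 levels centred on each gene's mean over the 4 arrays. The 5 nearest of the genes that passed the filter were Zfp750, a zinc finger transcription factor gene (distance 0.04), Fam83h (0.07), Acot2, a mitochondrial acyl-CoA thioesterase (0.07), Mmrn2, a multimerin (0.07), and P2rx7, an ATP-gated channel (0.09). All 5 were higher in GSK-J4, by margins of 1.12 (Mmrn2) to 1.28 (Acot2), which follows from how they were chosen. None is on the pathway list used below.

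The wider pathway was described with 136 further genes in 9 groups by role; 119 had a probe set of their own and 99 passed the filter. Of these 99, 3 were counted as higher (Chac1, Cth and Hmox1) and none as lower, beside the 2.21% and 0.842% of all genes given above. After repeated quantile normalization the counts were 3 and 1, the lower one being Nqo2. By any amount 34 of the 99 (34.3%) lay above all controls and 43 (43.4%) below, where 38.0% and 35.5% of all genes did. The gap to all genes depended on the scaling. After quantile normalization 32.3% lay above and 47.5% below, beside 32.3% and 42.5% of all genes. After loess 33.3% lay above and 45.5% below, beside 36.5% and 39.0%. The medians were −0.02 against GSK-J5, −0.02 against DMSO and −0.01 against EB medium.

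**Figure D3:**
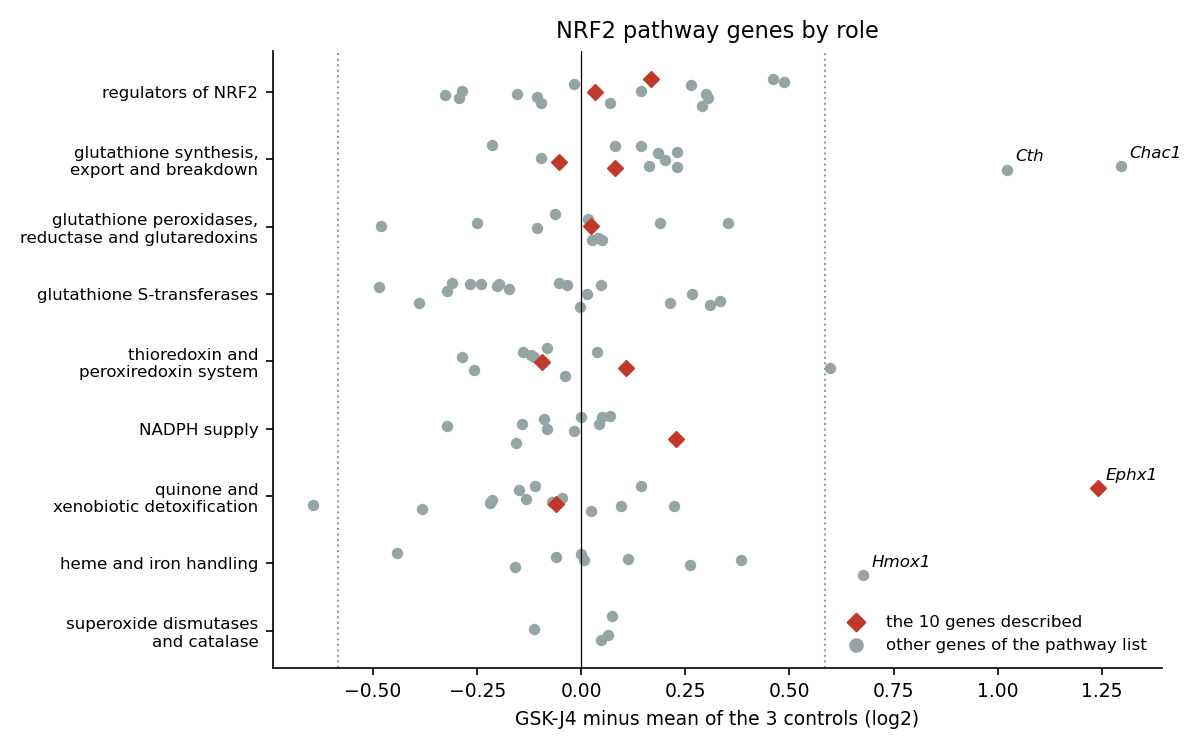
Each point is a gene that passed the filter, placed at GSK-J4 minus the mean of the 3 controls (log2) in the row of its role; diamonds are the 10 genes and dotted lines mark 1.5-fold. Ephx1 (1.24), Chac1, Cth and Hmox1 are named as the genes counted as higher, and most points of the thioredoxin row lie left of 0.

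Of the 3 counted genes, Chac1 and Cth belong to the group of glutathione synthesis, export and breakdown. Chac1, which degrades glutathione, read 10.54 in GSK-J4, against 9.44 in GSK-J5, 9.18 in DMSO and 9.11 in EB medium. Cth, the cystathionine gamma-lyase that releases cysteine, read 11.83 in GSK-J4, against 10.95 in GSK-J5, 10.70 in DMSO and 10.77 in EB medium. GSK-J4 stood clear of the controls for both, and GSK-J5 was the highest control. Slc7a11, the cystine importer, read 7.27 in GSK-J4, against 5.49 in GSK-J5, 5.04 in DMSO and 5.42 in EB medium. Its mean was under the filter, so it was not counted, and whether controls this dim exceeded background was not examined, so its margin of 1.78 is only approximate. A second Slc7a11 probe set gave 3.72 in GSK-J4 and between 3.60 and 3.61 elsewhere. Chac1, Cth and Slc7a11 are also known as targets of ATF4, the transcription factor of the amino acid response. In this group 8 of 11 genes that passed lay above all controls, where 38.0% of all genes did, with medians of 0.20 against GSK-J5, 0.23 against DMSO and 0.19 against EB medium.

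Hmox1, the inducible heme oxygenase, read 12.20 in GSK-J4, against 11.53 in GSK-J5, 11.52 in DMSO and 11.52 in EB medium. It was 1.59-fold above controls that differed by 0.01 among themselves. In the same group Slc40a1, the iron exporter ferroportin, read 8.80 in GSK-J4, against 9.24, 9.27 and 9.22 in GSK-J5, DMSO and EB medium, a margin of −0.42 that was not counted. Hmox1 is repressed by BACH1, and Bach1 read 9.99 in GSK-J4, against 9.67, 9.63 and 9.76 in the controls. Whether the Bach1 transcript bears on the Hmox1 level was not tested. Among the regulators of NRF2, the largest margins were those of Nfe2l1, an NRF2 relative (0.47), and Sqstm1, whose product p62 binds KEAP1 (0.41); neither was counted.

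**Figure D4:**
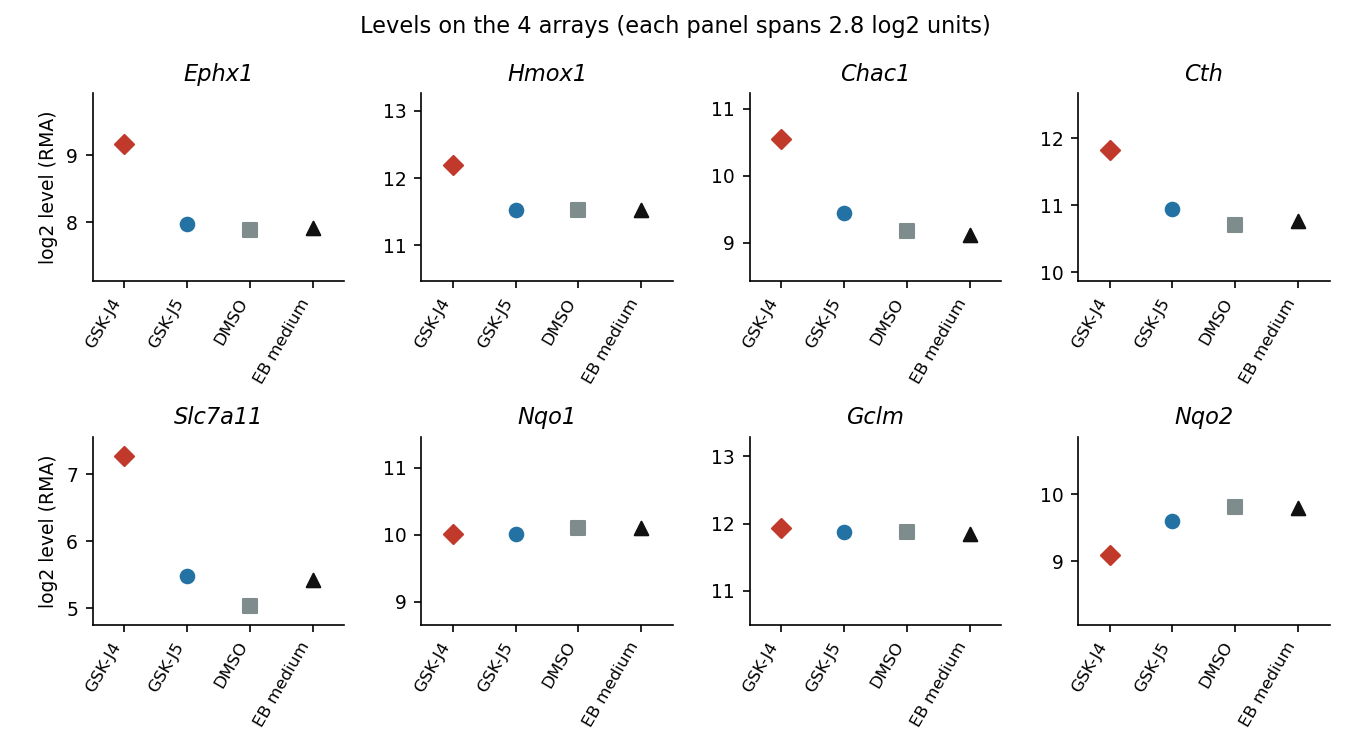
The log2 level on each of the 4 arrays is shown for 8 genes, each panel spanning the same number of log2 units. Ephx1, Hmox1, Chac1, Cth and Slc7a11 have the GSK-J4 symbol above all controls, Nqo1 (10.01 to 10.10) and Gclm (11.84 to 11.94) lie nearly level, and Nqo2 is lowest in GSK-J4.

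None of the further genes for thioredoxins, transferases or quinone and xenobiotic enzymes was counted. In the thioredoxin and peroxiredoxin group 7 of 9 genes that passed lay below (35.5% of all genes did), Prdx2 by a margin of −0.23, while Txnip, an inhibitor of thioredoxin, lay above them by 0.52. Of the glutathione S-transferases 9 of 18 lay below all controls and 4 above, where 35.5% and 38.0% of all genes did. Gstm7 (−0.35) and Gstk1 (−0.32) had the largest margins. In both groups more genes lay below than above under all 3 rescalings. After quantile normalization 6 of 9 thioredoxin group genes and 10 of 18 transferases lay below, where 42.5% of all genes did. The transferase paralogues are similar in sequence and their probes may share signal. In the quinone and xenobiotic group 7 of 13 lay below and 2 above, beside the same shares of all genes. After quantile normalization 8 of 13 lay below, beside 42.5% of all genes. Nqo2, a quinone reductase of this group, read 9.09 in GSK-J4, against 9.60 in GSK-J5, 9.81 in DMSO and 9.79 in EB medium. The margin of Nqo2 was −0.51, short of the 1.5-fold rule, and with the GSK-J5 array left out Nqo2 counted as lower. Cbr1, a carbonyl reductase of the same group, had a margin of −0.29.

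Among peroxidases and glutaredoxins Glrx (−0.32) and the secreted peroxidase gene Gpx3 (0.26) differed most, with 3 of 10 genes above and 3 below all controls (38.0% and 35.5% of all genes were). The NADPH supply genes, other than Me1, had 5 of 10 below and 2 above, beside the same shares of all genes, led by Pgd (−0.27) and Taldo1 (−0.10) of the pentose phosphate pathway. Superoxide dismutase and catalase genes had margins of −0.08 (Sod2) and 0.05 (Cat). None of these was counted.

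Markers of the cells at hand were read on the same arrays. Of 12 stem cell and early epiblast markers 11 passed the filter. Nanog read 13.05 in GSK-J4 and 13.11 to 13.20 in the controls, while Dppa5a, at 6.29 in GSK-J4 and 6.31 to 6.66 in the controls, was under the filter. Of the 12, 2 lay above all controls and 8 below, and Fgf5 and Dnmt3b were counted as lower. Those above were Klf4 (margin 0.25) and Esrrb (0.11), while Sox2 and Zfp42 lay within the controls. The margin of Nanog was only −0.06. Of all genes that passed the filter, 38.0% lay above and 35.5% below, and 0.842% were counted as lower. The numbers of markers above and below, here and in the next lists, include markers under the filter, so the shares are only a rough reference. Of 15 feeder fibroblast markers measured, 8 passed the filter. None was counted, none lay above all controls and 8 of the 15 lay below. Dcn, under the filter, read 4.78 in GSK-J4 and 5.29 to 5.59 in the controls. Col6a1, Thy1 and Tagln passed the filter and lay within the controls. The median difference of the feeder markers was −0.25 against GSK-J5, −0.15 against DMSO and −0.10 against EB medium. None of 12 endoderm markers, 6 of which passed the filter, was counted, with 4 of the 12 above all controls and 7 below. Of 9 blood and endothelial markers, 4 of which passed the filter, 3 lay above all controls and 2 below. Laptm5 was counted as higher, at 8.45 in GSK-J4 and 6.92 to 7.16 in the controls, where 2.21% of all genes were. The others above were Pecam1 (margin 0.37) and Cd68 (0.30). Both were already bright in the controls, at 10.72 to 10.80 for Pecam1 and 10.50 to 10.61 for Cd68. Kdr, Emcn and Gata1 were under the filter and lay within the controls. Those below were Cdh5 (−0.35, under the filter) and Tal1 (−0.08). The pan-leukocyte marker Ptprc read 4.49 in GSK-J4 and 4.37 to 4.51 in the controls. The median difference of these 9 was −0.02 against GSK-J5, 0.10 against DMSO and 0.12 against EB medium, and their median level was 6.56 in GSK-J4 and 6.64 to 6.70 in the controls. The part of these marker shifts in the higher Ephx1 level was not tested. In bulk RNA fewer cells of a type and less RNA per cell cannot be told apart.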

How the data were processed

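Total RNA of 4 embryoid body samples, 1 for each treatment, was hybridised to Affymetrix arrays. According to the submitters' processing notes, Affymetrix Expression Console (version 1.2.1.20) and RMA were used; the deposited values are taken as log2 levels, the base being inferred from the range of 2.20 to 14.48. RMA gives the arrays a common distribution of probe intensities, so a shift of total RNA would not show. The deposited levels still differed somewhat in distribution, with lowest values from 2.20 in GSK-J4 to 2.44 in EB medium. Scanner files were not used here, and background and detection were not examined.

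Of 41345 probe sets, 23521 had a single symbol in the platform annotation, giving 22180 genes. The filter was the 40th percentile of the gene means (6.585), passed by 13308 genes. With 1 array a treatment, genes were described by the 1.5-fold rule and no test was run. The alternatives were other filters, 3 rescalings (loess span 0.3), the median over probe sets, a 2-fold rule and leaving out each control.

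The named genes were the 10 members, counted pathway genes, the 2 of each group with the largest margin, Hmox1, Slc7a11 and the 5 profiles nearest to Ephx1; Bach1, Me3, the single markers named from the 4 cell type lists and the genes of shared probe sets were named after their values were seen. Members and lists were chosen with earlier results of these data known. Sequences are from RefSeq, GRCm38.p6; 0 member symbols needed an update. Python 3.11.15, pandas 2.3.3 and statsmodels 0.14.6 were used.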

Additional observations from a re-analysis of the deposited data

How the results depend on the processing

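Ephx1 was the only one of the 10 genes counted as higher, and none was counted as lower, under every alternative run: no filter, the 60th percentile, the 3 rescalings, the median over probe sets, the 2-fold rule and each control left out. Several of these could not change the call of Ephx1. It has 1 probe set and already passed the filter, and leaving out a control cannot shrink a margin above all controls. The 60th percentile, the rescalings and the 2-fold rule could have changed it. The margin of Ephx1 ranged from 1.10 (quantile normalization) to 1.25 (without GSK-J5). Of 70 recomputed margins of the 10 genes, 61 moved by no more than the SD of the gene's 3 controls, 9 by more, and 0 reversed a counted gene. Only the margins of Ephx1, the counted gene, could be scored as reversed. Some of the 61 could not move at all, so the tally is no measure of stability. The median over probe sets changes nothing for a gene with 1 probe set. Leaving out a control other than the nearest changes nothing for a gene outside the controls. The medians over the 10 genes kept their sign. In the wider pathway, the count of higher genes was 1 (Chac1) under the 2-fold rule and 3 or 4 otherwise. The count of lower genes was 1 without a filter (Me3, a dim gene), 1 after quantile normalization (Nqo2), and 0 to 1 when a control was left out (Nqo2 without GSK-J5). No paired analysis was possible because each treatment has 1 array. Differences of the size seen in the 9 other genes cannot be told from array-to-array variation without replicates.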

Other observations

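Probe sets that name several genes were kept out of the counts, and 28 of them name a gene of the wider pathway. None reached a margin of 1.5-fold, and none names any of the 10 genes. The largest margin was that of a probe set shared by Gstz1, a glutathione transferase, and Pomt2, at 9.96 in GSK-J4, against 9.39 in GSK-J5, 9.17 in DMSO and 9.22 in EB medium, a margin of 0.57. A probe set for Ftl1, the ferritin light chain and an NRF2 target, and its pseudogene Ftl1-ps2 read 11.40 in GSK-J4, against 10.83, 10.85 and 10.95 in GSK-J5, DMSO and EB medium. Brighter Ftl1 probe sets with further pseudogenes differed by 0.03 or less from the nearest control, so the probe sets of Ftl1 disagree. The brightest Prdx1 probe set, an antioxidant peroxiredoxin target of NRF2 shared with Gm21399, read 12.90 in GSK-J4, against 13.09, 13.17 and 13.04 in the controls.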
